A study of Mus musculus with 77 samples.

Results

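The comparison described here is that of H2AK119Ub in wild-type (WT) splenic B cells after CpG stimulation with the same mark in naive cells, in the arm of the study labelled tat. Its members are 6 of the 77 libraries of the series, chosen by their labels. Both groups were CD23+ B cells from the spleen of WT female mice; strain and age are not stated in the labels. The stimulated group (3 libraries) was given 80 µg of TAT-Cre, a cell-permeant Cre recombinase, for 45 min and was then cultured for 24 h with 1 µM CpG, an oligonucleotide ligand of Toll-like receptor 9. The naive group (3 libraries, 0 h) went straight to the assay without TAT-Cre or culture. No group had TAT-Cre or culture alone, so CpG, TAT-Cre and time in culture cannot be told apart. Replicates are labelled biological, but whether each is another mouse is not stated, so the tests read only the spread among these libraries.

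H2AK119Ub is histone H2A carrying a single ubiquitin on a lysine of its tail. It is placed by Polycomb repressive complex 1 (PRC1), in which RING1 or RNF2 is the ubiquitin ligase and a PCGF protein sets the type of complex, and it is removed by BAP1. PRC2 places H3K27me3, and both marks classically lie over developmental regulators, whose promoters are often rich in CpG dinucleotides, and over the inactive X chromosome of female cells. In B cells, Polycomb complexes are known for their part in germinal centre formation and in holding back plasma cell genes. The mark was mapped by CUT&RUN: a nuclease is brought to marked nucleosomes by the antibody and frees the DNA around them.

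The data are 1 list of called peaks per library (mm10). On the autosomes and X the stimulated lists held 37118, 31660 and 33425 peaks, against 1999, 19321 and 31892 in naive cells, and they covered 151.84, 124.48 and 133.53 Mb, against 40.53, 100.05 and 162.46 Mb. The first naive list is thus far shorter than the others, the groups overlap in length and in covered bases, and no source used here gives read depth. Gene results therefore rest on rank: each list was trimmed to its 1999 peaks of highest total signal (the sum of coverage under a peak), and a gene took the rank of the best peak that touched it or its 2 kb flanks. The score is the log2 of 2000 over that rank, a gene with no peak among the 1999 scores 0, and a difference of 1 is a 2-fold better rank. Rank is relative, so a locus can lose rank when others gain it, and fewer marked cells or less mark per cell cannot be told apart. Cell identity was read from H3K27ac, which marks active regulatory elements, in the same cells: all 10 of 10 B cell markers had a peak in each of the 6 H3K27ac libraries, against 2 to 4 of 22 T cell, 0 to 2 of 21 myeloid, 0 to 3 of 13 erythroid and 0 to 2 of 11 NK cell markers.

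The trimmed lists fell into their groups. The bases shared by 2 lists, as a fraction of the bases in either, were 0.39 to 0.41 between stimulated libraries, 0.54 to 0.55 between naive libraries and 0.27 to 0.33 between a stimulated and a naive one. Pearson correlations of the gene scores, given as a description across 2760 genes, were 0.77 to 0.81 within stimulated cells, 0.86 to 0.89 within naive cells and 0.56 to 0.68 between the groups. The third stimulated library lay nearest to the naive ones, at 0.64 to 0.68.

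Among the 2760 genes with a peak in at least 3 of the 6 trimmed lists, 250 ranked higher in stimulated cells and 273 lower (limma, Benjamini-Hochberg adjusted p under 0.05), which are 9.06% and 9.89% of the genes tested. Neighbouring genes often share a peak, so these calls stand for 160 and 219 distinct sets of ranks. The median difference was 0.003 over all genes tested, 1.84 over the genes called higher and −1.88 over those called lower. The groups did not overlap at 610 genes with higher scores in stimulated cells and at 636 with lower scores, or 22.1% and 23% of those tested. All 250 and all 273 genes called are among them, so a lack of overlap at a called gene adds no support to its call. Of the genes called, 79 higher had no trimmed peak in naive cells and 128 lower had none in stimulated cells. Over all 2760 tested, 207 had none in naive cells and 277 none in stimulated cells. Such a gene was tested only because all 3 lists of the other group held a peak, so the filter itself set its groups apart. Its scores in the group without a peak have no spread, so its p-value, here and below, is only a description. Genes that ranked lower kept some mark, as did nearly all genes tested. Of the 273, 239 had a deposited peak in all 3 stimulated lists, against 2663 of all 2760 tested. None of the 273 lacked one in every stimulated list. Of the 250 that ranked higher, 148 had a deposited peak in all 3 naive lists, against 2279 of all 2760 tested.

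**Figure D1:**
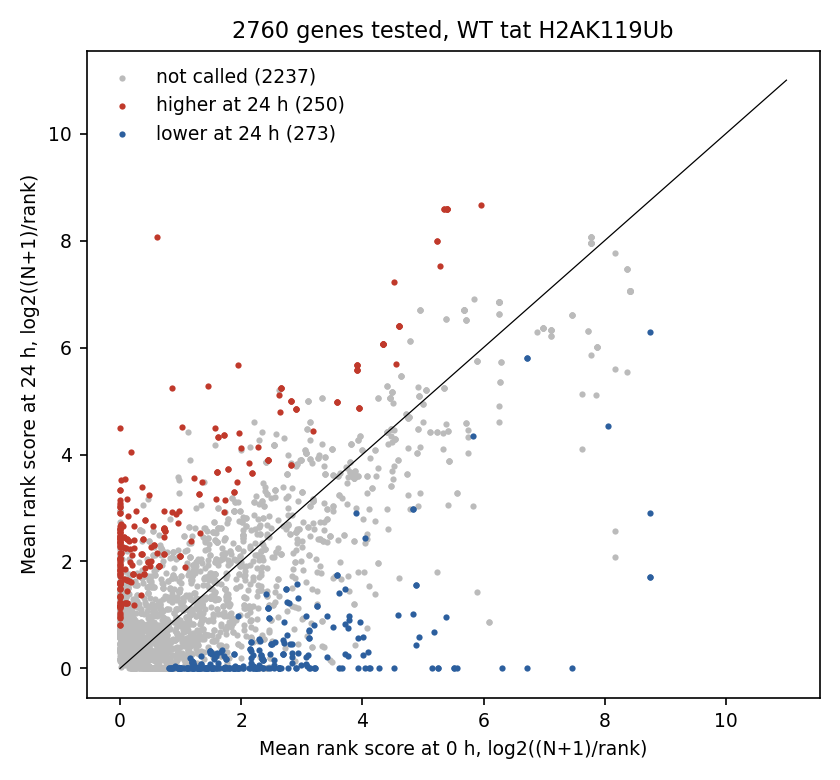
Mean score of each of the 2760 genes tested in stimulated (24 h, vertical axis) against naive (0 h, horizontal axis) WT tat cells, as log2 of 2000 over the rank of the gene's best peak, with the 250 genes called higher in red and the 273 called lower in blue, and the line of equal scores. Genes at 0 on an axis had no peak among the 1999 in any library of that group, which holds for 128 of the lower genes in stimulated cells and 79 of the higher genes in naive cells.

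With peaks ranked by their highest signal in place of their total, which gives no weight to width, 27 genes were called higher and 175 lower of 2561 tested. Of the genes called by total signal and tested again, 168 of 201 higher and 239 of 244 lower kept their direction. Only 13 of the higher and 99 of the lower were called by both. Without the short naive list, the 5 longer lists could be compared over their upper 19321 peaks and 11627 genes, a choice made after seeing the data. That comparison called 85 genes higher (0.731%) and 112 lower (0.963%), of which 44 and 72 were also called in the 6 trimmed lists, and all 250 and 267 of the earlier calls that could be tested there kept their direction. Leaving out the second naive library gave 85 and 84 calls, leaving out the third gave 76 and 61, and leaving out the second stimulated library gave 136 higher.

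Homeobox and other developmental regulators, the classical Polycomb targets, were called higher more than lower in stimulated cells. Of 74 such genes listed, 40 could be tested: 12 ranked higher (among them Pax2, Pax6, Nkx2-2, Lhx2, Gata4, Foxf1, Irx5, Barx1, Barhl2 and Olig2, named here because they were called) and 1 lower (Lhx9), while 27 were not called. Over all genes tested, 9.06% were called higher and 9.89% lower. The median difference was 0.85, against 0.003 over all genes tested. All 74 had an H3K27me3 peak in at least 2 of 3 libraries at both times and none had H3K27ac in as many. In the deposited lists 94.6% of them on average carried an H2AK119Ub peak in stimulated and 59.0% in naive cells, against 47.4% and 27.1% of all genes, and 17 of the 74 had one in every stimulated and no naive library, as did 7.75% of all genes with a peak in any of the 6.

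Pax6 (chr2:105668896-105698410), a paired-box factor of eye and brain development, had ranks of 71, 56 and 61 in stimulated cells, against 261, 317 and 272 in naive cells (difference 2.18 ± 0.23 SE, adjusted p = 0.003). Its peak was about as wide in both, 31.4, 32.4 and 30.2 kb against 38.7, 27.7 and 33.4 kb. Every stimulated rank was thus better than every naive one, while the widths overlapped. At Pax2 (chr19:44746601-44838269), a paired-box factor of the kidney, the ranks were 95, 93 and 204 in stimulated cells, against 1695, 1594 and none in naive cells (3.85 ± 0.37, adjusted p = 0.002), and the best peak spanned 30.9, 26.9 and 19.4 kb against 17.5, 10.0 and 13.1 kb. Here the stimulated peaks were both better ranked and wider, without overlap. In the second naive library the best peak lay at the other end of Pax2 (chr19:44831249-44841258), so its rank and width are those of another region.

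Barhl2 (chr5:106452523-106458166), a homeobox factor of the nervous system, had ranks of 77, 112 and 114 in stimulated cells and of 482, 839 and 679 in naive cells (2.71 ± 0.31, adjusted p = 0.003), and the whole gene lay under peaks in all 6 libraries. Prdm12, a PR-domain regulator of sensory neurons, had ranks of 249, 209 and 182 against 1402, 1408 and 1497 (2.76 ± 0.23, adjusted p = 0.002). Peaks covered 94.0% ± 3.26 of the Prdm12 gene in stimulated and 50.3% ± 11.5 in naive cells (SD, n = 3 each). At both genes the groups did not overlap, as at every gene called.

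Dmrta2 (chr4:109977989-109983691), a DM-domain factor of the developing forebrain, had the smallest p among the higher genes. Its ranks were 283, 214 and 251 in stimulated cells, and no naive library had a peak there among its 1999, a difference of at least 3.01 (adjusted p = 0.002). The naive scores of Dmrta2 have no spread and the filter itself set its groups apart, so its p is only a description. Deposited peaks of 5.57 and 8.64 kb were present in 2 naive libraries, against 16.5, 16.7 and 18.1 kb in stimulated cells. Irx5, an Iroquois homeobox gene, and Crnde, the long non-coding RNA beside it, shared their best peak in stimulated cells at ranks of 420, 312 and 238. Irx5 had a naive rank in 1 library, 1803, and Crnde in none (differences 2.62 ± 0.28 and at least 2.67, adjusted p = 0.003 each). By highest signal Dmrta2 and Pax6 were called higher as well (adjusted p = 0.048 and 0.032), while Pax2, Prdm12, Barhl2 and Irx5 kept the sign without passing the test (adjusted p = 0.21, 0.075, 0.073 and 0.17). With signal in ppm of the deposited lists in place of rank, the sign at Pax6 turned to −0.092.

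Hox genes nearly all touched a deposited peak in every library, and few were called. Of 39 genes listed, 38 were tested, 2 ranked higher (Hoxb13 and Hoxc13), none lower, and the median difference was 0.31. Over all genes tested, 9.06% ranked higher and 9.89% lower. The groups did not overlap at 10 Hox genes with higher and 9 with lower scores in stimulated cells, against 22.1% and 23% of all genes tested. Hoxb13, the most 5′ gene of its cluster, had ranks of 81, 50 and 62 in stimulated cells, against 132, 149 and 236 (1.40 ± 0.33, adjusted p = 0.033), a call that 5 of 15 other settings kept. Hoxa10 had a rank of 15 in each stimulated library, against 6, 3 and 11 in naive cells (−1.36 ± 0.48, adjusted p = 0.095). These values lay outside each other's range but did not pass the test.

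Hoxc13 (chr15:102921131-102928814), the most 5′ gene of the Hoxc cluster, gave the largest gain among the genes named. It ranked 4, 6 and 17 in stimulated cells, against 1826, 1517 and 809 in naive cells (7.46 ± 0.61, adjusted p = 0.002). In stimulated cells it lay under 1 unbroken peak of 154.2, 112.5 and 61.2 kb, which in the first library lay at chr15:102909138-103063297. In naive cells the peaks at the gene spanned 14.8, 12.5 and 22.6 kb. The Hoxc13 widths did not overlap between groups, nor did the ranks, as at every gene called.

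Other loci with the smallest p in the same direction included genes of varied function. Tlx2, a homeobox gene of the enteric nervous system, and its neighbour Pcgf1, which encodes the PCGF subunit of a PRC1 variant bound to CpG islands, shared ranks of 44, 53 and 64 in stimulated cells, against 296, 277 and 395 (2.59 ± 0.27, adjusted p = 0.003). The long non-coding gene Gm40149 had ranks of 158, 64 and 69 in stimulated cells and none in naive cells (at least 4.50, adjusted p = 0.002). Sema6b, a transmembrane semaphorin, had ranks of 317, 257 and 267 in stimulated cells and 1 naive rank of 1525 (2.71 ± 0.24, adjusted p = 0.002). Trp53i11, a p53-inducible gene, had ranks of 306, 408 and 413, and none in naive cells (at least 2.43, adjusted p = 0.002). Trp53i11 differs from the developmental genes in its other marks, with H3K27ac in 3 of 3 libraries and H3K27me3 in 0 of 3 at both times.

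Some of the calls rested on regions with atypical signal. At Chl1, a neural cell adhesion gene, the peak was 0.25, 0.25 and 0.62 kb wide in stimulated cells and 0.77, 0.25 and 0.25 kb in naive cells, with a highest signal of 3156, 2334 and 2360 against 3870, 1427 and 2185. For scale, the highest signal at Pax6 was 14, 15 and 15 against 24, 14 and 14. Its ranks were 12, 14 and 14 against 68, 111 and 87 (2.71 ± 0.27, adjusted p = 0.002), but by highest signal the difference was 0.49 (adjusted p = 0.38). Gm40363 had ranks of 6, 4 and 5 against 31, 33 and 33 (2.71 ± 0.25, adjusted p = 0.002). Its best peak lay at one end of the gene or the other, peaks covered the same 16.6% of the gene in all 6 libraries, and by highest signal the difference was 0.10 (adjusted p = 0.88).

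**Figure D2:**
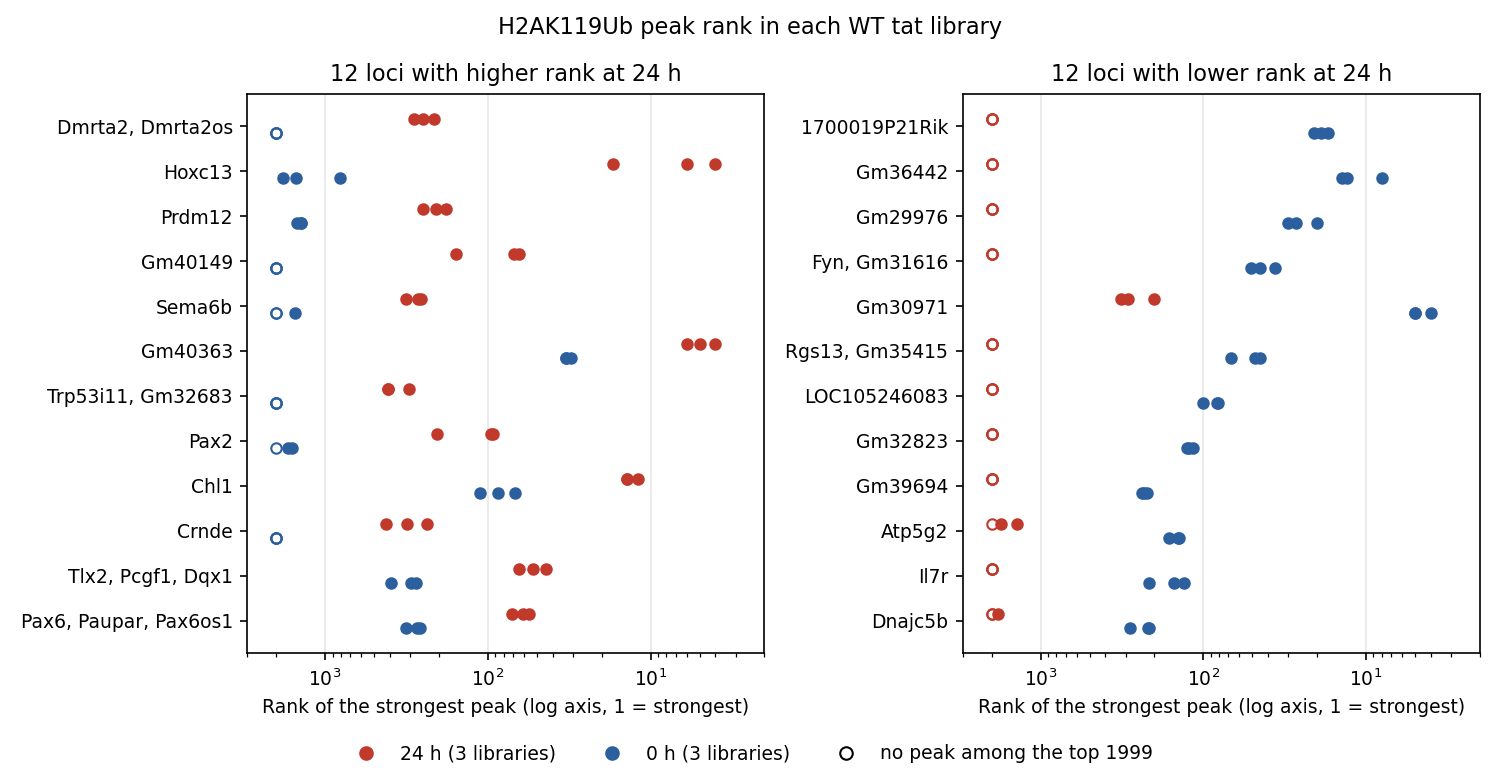
Rank of the strongest H2AK119Ub peak by total signal (log axis, 1 is the strongest, to the right) at the 12 loci with the smallest p in each direction, in the 3 stimulated (24 h, red) and 3 naive (0 h, blue) libraries. Open points had no peak among the 1999. Pax6 sits at 56 to 71 in stimulated and 261 to 317 in naive cells, while Rgs13 has open points in stimulated cells and 45 to 68 in naive cells.

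The loci that ranked lower had short peaks in stimulated cells and broad domains in naive ones. The best peak of the 273 genes had a median width of 7.216, 6.312 and 6.999 kb in stimulated cells, against 23.1, 18.9 and 24.9 kb in naive cells, over the genes with a deposited peak. For the 250 higher genes the medians were 18.1, 17.4 and 16.5 kb against 16.2, 9.58 and 12.3 kb. Total signal grows with width, so these widths are a description of what the ranks used. Genes that ranked lower were also longer, with a median of 34.1 kb against 10.9 kb for the higher and 15.8 kb for all genes tested.

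Rgs13 (chr1:144137386-144177372), a regulator of G-protein signalling known for its expression in germinal centre B cells, had no peak among the 1999 in any stimulated library, against ranks of 48, 45 and 68 in naive cells, a difference of −5.24 or below (adjusted p = 1.8e-04). The deposited peak in stimulated cells was 2.15, 4.61 and 4.90 kb wide, at ranks 19308, 5801 and 6694, against 66.8, 52.1 and 66.2 kb in naive cells, where that of the first library lay at chr1:144145953-144212760. Peaks covered 25.6% ± 17.1 of the gene in stimulated and 77.6% ± 5.78 in naive cells (SD, n = 3 each). The H3K27me3 peak over Rgs13 was present in 0 of 3 stimulated and 3 of 3 naive libraries, and the H3K27ac peak in 2 of 3 and 1 of 3.

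Fyn (chr10:39369743-39565381), a Src-family kinase of lymphocyte receptor signalling, had the same pattern of ranks and widths. Its naive peaks lay at chr10:39308645-39379017, 39312835-39377078 and 39306128-39379325, so most of each lay before the gene and only its end over it. No stimulated library had a peak among its 1999 there, against naive ranks of 45, 36 and 51 (−5.52 or below, adjusted p = 1.5e-04), and the deposited peaks were 4.98, 6.20 and 6.28 kb against 70.4, 64.2 and 73.2 kb. H3K27me3 lay over it in 0 of 3 stimulated and 2 of 3 naive libraries. Cxcr4 (chr1:128588199-128592299), the chemokine receptor that holds B cells in the dark zone and in bone marrow, had no rank in stimulated cells, against 174, 260 and 263 in naive cells (−3.13 or below, adjusted p = 0.002), with peaks of 7.79, 4.78 and 6.23 kb against 36.3, 21.1 and 28.2 kb. In naive libraries 2 and 3 the best peak (chr1:128566766-128587845 and 128559717-128587914) ended before the Cxcr4 gene and touched only its flank. In naive library 1 it lay over the whole gene. The best peaks of stimulated libraries 1 and 2 lay over part of the gene, and that of library 3 touched only its flank. Peaks covered 59.7% ± 14.1 of the gene in stimulated and 88.8% ± 11.9 in naive cells (SD, n = 3 each). Il7r, the interleukin-7 receptor of T cells and early B cells, had no rank in stimulated cells, against 152, 132 and 215 in naive cells (−3.62 or below, adjusted p = 0.002). Fyn and Il7r are also T cell genes, and T cell markers with an H3K27ac peak numbered 4, 2 and 4 of 22 in stimulated and 2, 2 and 2 in naive cells, whose part in the result was not tested. Rgs13, Fyn, Cxcr4 and Il7r had no rank in any stimulated library, so their p-values by rank are only a description. By highest signal Rgs13, Fyn, Cxcr4 and Il7r were all called lower as well, with adjusted p of 0.016, 0.010, 0.030 and 0.025.

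Most of the other loci with the smallest p in this direction were long non-coding genes. Gm36442 had no rank in stimulated cells, against 13, 8 and 14 in naive cells, in domains of 84.8, 80.2 and 83.9 kb (−7.46 or below, adjusted p = 1.5e-04). At 1700019P21Rik there was likewise none, against 21, 17 and 19 (−6.72 or below, adjusted p = 1.3e-04), and at Gm29976 none, against 30, 20 and 27 (−6.30 or below, adjusted p = 1.5e-04). Gm30971 kept a rank in both states, 201, 320 and 290 in stimulated cells against 5, 5 and 4 (−5.84 ± 0.28, adjusted p = 1.8e-04), with peaks of 24.4, 20.0 and 16.9 kb against 176.4, 137.4 and 168.2 kb. LOC105246083, Gm32823 and Gm39694 had no stimulated rank, against naive ranks of 81 to 100, 116 to 125 and 221 to 239 (−4.52, −4.05 and −3.12 or below). Atp5g2, a subunit of mitochondrial ATP synthase, had ranks of 1761, none and 1399 against 162, 142 and 140 (−3.53 ± 0.24), and Dnajc5b, a J-domain protein, none, none and 1836 against 215, 218 and 281 (−3.04 ± 0.23), with adjusted p of 0.001 and 0.002. At each of these loci every stimulated library was below every naive one, as at every gene called lower.

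Promoter CpG content was close in the 2 directions. The stretches below, from 250 bases before to 50 after the start, come from RefSeq (GRCm38.p6), are written 5′ to 3′ on the gene's strand with every CG in capitals, and belong to a developmental and a B cell gene that ranked higher and 2 genes that ranked lower. They are Barhl2 at chr5:106458117-106458416 (minus strand, 42 CG), Spib at chr7:44532022-44532321 (minus strand, 2 CG), Fyn at chr10:39369549-39369848 (plus strand, 31 CG) and Rgs13 at chr1:144177323-144177622 (minus strand, 0 CG).
Barhl2: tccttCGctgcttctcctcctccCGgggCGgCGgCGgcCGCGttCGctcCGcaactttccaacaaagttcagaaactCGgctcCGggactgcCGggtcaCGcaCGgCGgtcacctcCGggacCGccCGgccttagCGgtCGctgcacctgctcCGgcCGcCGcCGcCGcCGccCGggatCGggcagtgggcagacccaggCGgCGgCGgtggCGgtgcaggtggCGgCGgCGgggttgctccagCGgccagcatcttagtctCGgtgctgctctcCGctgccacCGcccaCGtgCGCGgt
Spib: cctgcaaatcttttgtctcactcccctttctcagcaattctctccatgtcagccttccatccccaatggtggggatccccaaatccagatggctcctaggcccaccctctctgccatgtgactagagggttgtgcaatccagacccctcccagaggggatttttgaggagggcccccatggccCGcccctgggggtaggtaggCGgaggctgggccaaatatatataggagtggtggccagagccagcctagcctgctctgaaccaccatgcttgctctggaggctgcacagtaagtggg
Fyn: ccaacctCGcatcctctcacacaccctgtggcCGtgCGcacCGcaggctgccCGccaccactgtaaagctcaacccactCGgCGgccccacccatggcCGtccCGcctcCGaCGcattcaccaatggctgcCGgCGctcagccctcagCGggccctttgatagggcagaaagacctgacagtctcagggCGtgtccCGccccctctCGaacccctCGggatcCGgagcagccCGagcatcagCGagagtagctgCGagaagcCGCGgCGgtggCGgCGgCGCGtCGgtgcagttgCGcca
Rgs13: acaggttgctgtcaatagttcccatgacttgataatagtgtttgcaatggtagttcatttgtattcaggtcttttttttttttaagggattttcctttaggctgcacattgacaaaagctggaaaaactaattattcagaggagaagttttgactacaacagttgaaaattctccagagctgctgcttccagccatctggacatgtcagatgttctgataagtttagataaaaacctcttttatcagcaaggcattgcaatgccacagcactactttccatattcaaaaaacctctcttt
In the trimmed lists the Barhl2 window touched a peak in 3 of 3 stimulated and 3 of 3 naive libraries, that of Spib in 3 of 3 and 0 of 3, and those of Fyn and Rgs13 in 0 of 3 and 3 of 3. Each direction thus holds 1 promoter rich and 1 poor in CG. Over the genes called, the median number of CG in the 300 bases was 16 for the higher genes (177 matched), 14.5 for the lower (216 matched) and 15 for all tested (2099 matched), against 7 for all 26794 promoters in the table. The share with 20 or more was 39.5%, 41.2% and 39.9%, against 26.7% of all promoters, and 94.3% of all promoters hold at least 1.

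B cell identity genes had H2AK119Ub peaks in more stimulated than naive libraries, mostly below the upper 1999. Of 40 such genes only 3 could be tested by rank, and 1 ranked higher, against 9.06% of all genes tested. That was Spib (chr7:44525995-44532087), an Ets factor needed for B cell receptor responses, at ranks of 297, 296 and 522 in stimulated cells and none in naive cells (at least 2.48, adjusted p = 0.004). Its peak was 17.7, 16.3 and 16.5 kb wide and covered the whole gene in stimulated cells, against 3.69 and 3.66 kb in 2 naive libraries and none in the short one. Spib carried H3K27ac in 3 of 3 libraries at both times and H3K27me3 in none. Vpreb3, a chaperone of the B cell receptor light chain, had ranks of 479, 569 and 1506 and none in naive cells (at least 1.43, adjusted p = 0.080), and Pou2f2, which encodes the octamer factor OCT2, had 560, 554 and 866 against 1098, 937 and 1026 (0.66 ± 0.27, adjusted p = 0.14). At neither did the groups overlap, as at 22.1% of all genes tested with higher scores in stimulated cells, and neither passed the test. Spib and Vpreb3 had no naive rank, so the filter itself set their groups apart.

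In the deposited lists 77.5% of the 40 identity genes on average had a peak in stimulated cells and 17.5% in naive cells, against 47.4% and 27.1% of all 34328 genes. A group of 12 had one in every stimulated and no naive library, as did 7.75% of all genes with a peak in any of the 6, a share that changed with the lists kept. The gain was not particular to B cell genes. Of 19 housekeeping genes, 50.9% on average had a peak in stimulated and 5.26% in naive cells, and 4 had one in every stimulated and no naive library.

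Among the fixed genes, Pax5, the B lineage commitment factor, had deposited peaks at ranks 2019, 2443 and 8922 in stimulated cells and none in naive cells, as did Ebf1 (13506, 14576 and 19324), another lineage factor, and Tlr9, the receptor of CpG (27035, 9253 and 16290). Peaks covered 5.06% ± 3.04 of Pax5 and 39.7% ± 6.05 of Tlr9 in stimulated cells, and 0% of both in naive cells. The listed markers of follicular B cells did not share this: Cr2 had no peak in any library, and Fcer2a, which encodes CD23, had 1 in a single stimulated library.

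Of 47 genes of B cell activation listed, 9 were tested, 3 ranked higher and none lower, against 9.06% and 9.89% of all genes tested. Socs3, a feedback inhibitor of cytokine signalling, had ranks of 327, 67 and 313 against 1537, 1233 and none (3.04 ± 0.66, adjusted p = 0.025). Nfkb2, the precursor of the NF-κB subunit p52, had ranks of 218, 550 and 440 against 1720, none and 1049 (2.03 ± 0.44, adjusted p = 0.026). Icam1, an adhesion molecule, had 466, 413 and 527 against 1017, 803 and 1261 (1.11 ± 0.27, adjusted p = 0.034). These 3 were called in only 9, 7 and 6 of 15 other settings. In the deposited lists 85.1% of the list had a peak in stimulated and 45.4% in naive cells, against 47.4% and 27.1% of all genes. Irf4, a factor of activation and plasma cell fate, had deposited ranks of 4812, 5189 and 11693 and none in naive cells, Myc had peaks in 3 of 3 stimulated and 2 of 3 naive libraries, and Cd69, an early activation marker, had none at either time.

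For plasma cell and germinal centre genes (6 tested of 26), 2 ranked lower, Rgs13 and Cxcr4, and none higher. Over all genes tested, 9.89% ranked lower and 9.06% higher, and lists with so few genes tested give no result about the list as a whole. Prdm1, the master regulator of plasma cells, did not differ beyond its spread, with ranks of 251, 574 and 239 against 377, 243 and 494 (0.13 ± 0.46, adjusted p = 0.86). Chemokine and homing receptors (3 tested of 28) had 2 lower, Cxcr4 and Itgb7, an integrin of gut homing. Itgb7 had ranks of 405, none and none against 231, 147 and 159 (−2.74 ± 0.67, adjusted p = 0.037), a call kept in 5 of 15 other settings.

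The Polycomb machinery's own genes were marked too. Of 31 genes of PRC1 and of H2A ubiquitination, 9 were tested, 1 ranked higher (Pcgf1, described above) and none lower. Over all genes tested, 9.06% ranked higher and 9.89% lower, so these few calls give no result about the machinery as a whole. Cbx2, a chromodomain subunit of PRC1, had ranks of 23, 12 and 36 against 51, 47 and 46 (1.16 ± 0.42, adjusted p = 0.11), and Bmi1, a PCGF subunit, had 1649, 116 and 73 against 36, 44 and 65 (−2.36 ± 1.16, adjusted p = 0.20). Cdkn2a, the cell cycle inhibitor that BMI1 is known to repress, had ranks of 25, 23 and 18 against 39, 34 and 42 (0.81 ± 0.24, adjusted p = 0.066) under peaks that covered the whole gene in all 6 libraries. None of these 3 passed the test. The ligase genes Ring1 and Rnf2 and the PRC2 methyltransferase gene Ezh2 had no peak among the upper 1999 in any library. Of 17 genes of PRC2 and H3K27 modification, 2 were tested and 1 ranked lower: Kdm6b, an H3K27 demethylase, at 1719, 1790 and 1334 against 683, 905 and 585 (−1.17 ± 0.27, adjusted p = 0.032). By highest signal the Kdm6b difference was 0.54, with the opposite sign (adjusted p = 0.65).

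The remaining lists gave few calls. By limma none was called among the tested genes of Toll-like receptor signalling (1 of 28), the cell cycle (9 of 33), the interferon response (2 of 22), imprinted domains (2 of 33), the X inactivation centre (2 of 9), escape from X inactivation (2 of 14), erythroid markers (4 of 13) or NK cell markers (1 of 11). At an unadjusted p under 0.05 there were 3 higher and 2 lower cell cycle genes and 1 lower gene each among imprinted, X inactivation centre, escape and erythroid genes. Over all 2760 genes tested there were 498 higher and 496 lower at that limit. No housekeeping gene of 19 and no X-linked immune gene of 25 could be tested. Among T cell markers 6 of 22 were tested and 1 ranked lower (Il7r), and among myeloid markers 6 of 21 and 1 (Adgre1, which encodes the macrophage protein F4/80). Over all genes tested, 9.89% ranked lower. Adgre1 had no rank in stimulated cells, against 472, 746 and 422 in naive cells (−1.92 or below, adjusted p = 0.008). On average 50.9% of the housekeeping genes had a deposited peak in a stimulated and 5.26% in a naive library, against 47.4% and 27.1% of all genes.

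**Figure D3:**
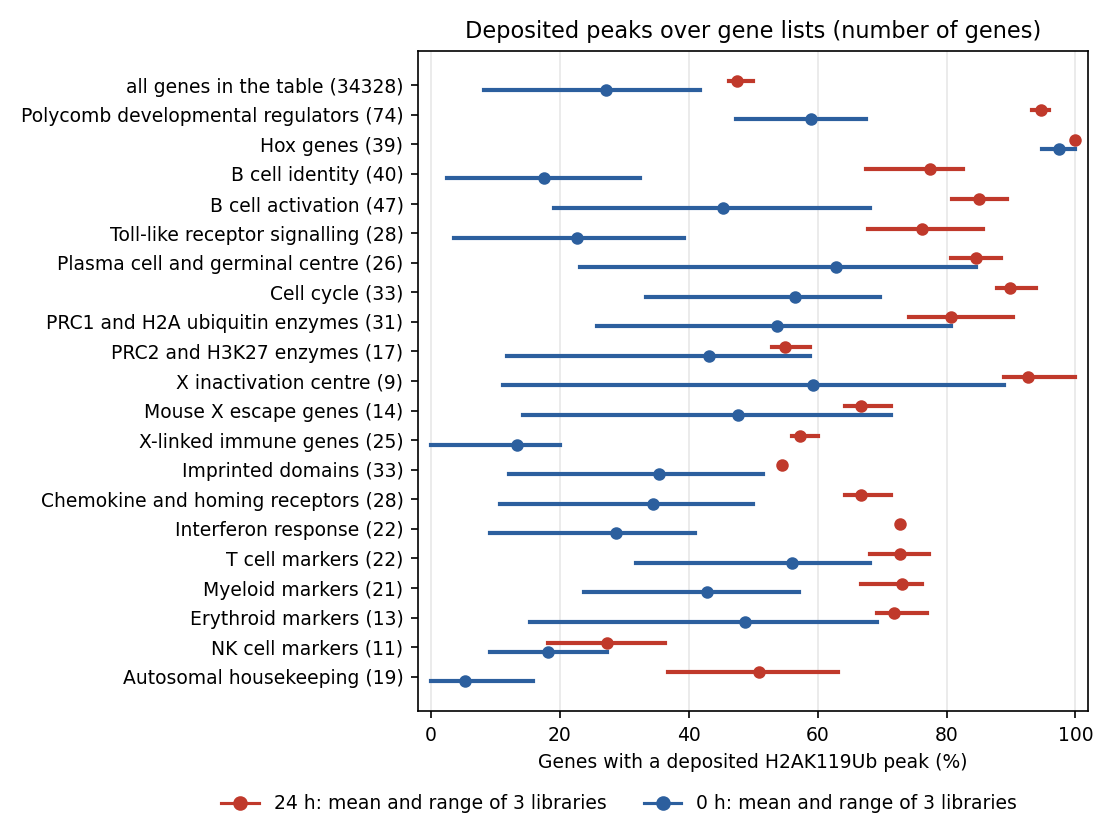
Share of each gene list (number of genes in brackets) with a deposited H2AK119Ub peak in stimulated (24 h, red) and naive (0 h, blue) cells, in percent, as the mean (point) and range (line) of 3 libraries. B cell identity genes average 77.5% in stimulated and 17.5% in naive cells, against 47.4% and 27.1% of all genes, and the naive ranges reach down to the library of 1999 peaks.

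Wide peaks were fewer in every stimulated library. Peaks of 50 kb or wider numbered 17, 11 and 17, against 81, 33 and 67 in naive cells (60.3 ± 24.7 on average, SD, n = 3), and those of 20 kb or wider 247, 211 and 215 against 605, 393 and 628. They held 7.44, 6.15 and 6.48 Mb in stimulated cells, against 21.4, 12.6 and 21.3 Mb. The groups did not overlap, and each exact permutation test (two-sided) gave p = 0.1, the smallest that 3 against 3 can give. Even the naive list of 1999 peaks had more wide peaks than any stimulated list. The width limits were chosen after the values were seen. In the WT cells of the mb1 arm, which had CpG without TAT-Cre, peaks of 50 kb or wider numbered 80, 24 and 82 at 24 h and 81, 94 and 78 at 0 h (exact permutation p = 0.5), and those of 20 kb or wider 1046, 410 and 1097 at 24 h and 577, 828 and 598 at 0 h (p = 0.4). There the groups overlapped at both limits, and the mean of the 20 kb count was higher at 24 h. The tat cells labelled Xist KO had both TAT-Cre and CpG at 24 h. Their peaks of 50 kb or wider averaged 25 at 24 h and 31.7 at 0 h (exact permutation p = 0.6). Those of 20 kb or wider averaged 400 and 338 (exact permutation p = 0.9), and the groups overlapped at both limits. The cause of these differences between sets of cells was not tested.

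**Figure D4:**
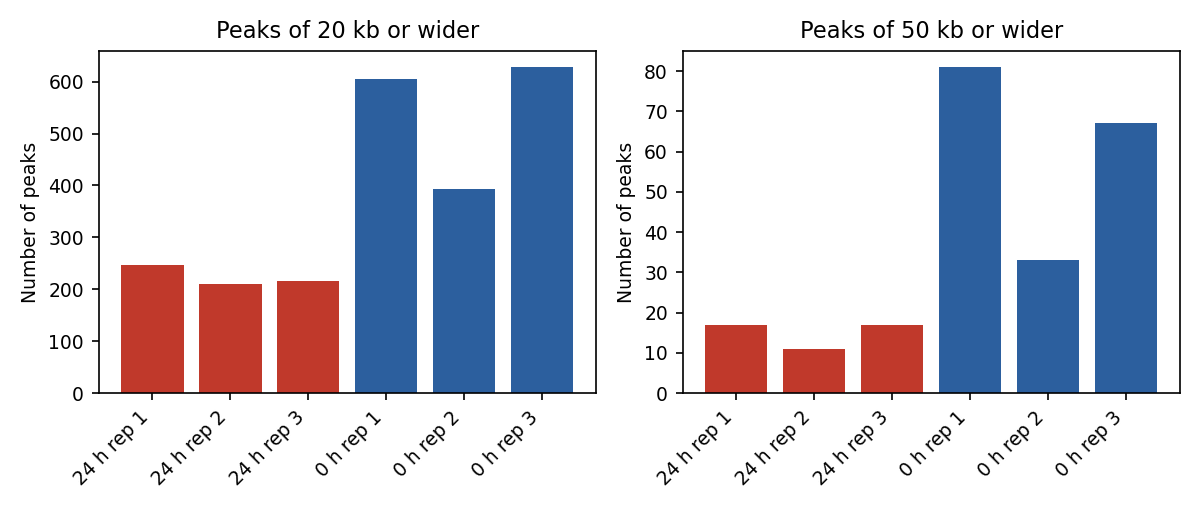
Number of H2AK119Ub peaks of 20 kb or wider (left) and of 50 kb or wider (right) in each stimulated (24 h, red) and naive (0 h, blue) WT tat library, in the deposited lists. Each bar is 1 library, and every stimulated bar is below every naive one, at 11 to 17 against 33 to 81 for the 50 kb limit.

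The trimmed peaks of stimulated cells lay more within genes. Gene bodies with 2 kb on either side held 71.2% ± 0.75 of the trimmed bases in stimulated cells and 58.7% ± 1.45 in naive cells, and 65.4% ± 1.70 and 57.9% ± 1.69 of the deposited bases (SD, n = 3 each). A promoter window was touched by 56.0% ± 1.53 of trimmed peaks in stimulated and 51.7% ± 2.38 in naive cells. In deposited lists that order was turned round, with 19.7% and 30.9% and overlap (exact permutation p = 0.6), and without the short naive list the difference was 0.24 points. The median trimmed peak was 11.4 ± 0.54 kb wide against 14.9 ± 2.03 kb, and the trimmed lists covered 26.9 ± 1.06 Mb against 37.6 ± 5.14 Mb. Other than for promoters in deposited lists, the groups did not overlap, with the smallest possible exact permutation p of 0.1.

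Relative to the other marks, a larger share of the H2AK119Ub bases lay in H3K27ac regions of 0 h in stimulated cells, while the groups overlapped for H3K27me3 regions held by at least 2 libraries. Peaks were set against H3K27me3 regions held by at least 2 of the 3 WT tat libraries of one time. Regions of 24 h held 55.5% ± 6.2 of the trimmed H2AK119Ub bases in stimulated and 47.9% ± 3.7 in naive cells (exact permutation p = 0.2), and regions of 0 h held 63.1% and 63.2% (p = 1). In both cases the groups overlapped. For H3K27me3 regions of 24 h held by 3 of 3 libraries the shares were 43.1% ± 4.35 and 34.4% ± 3.36, without overlap (exact permutation p = 0.1, the smallest possible), but in deposited lists 14.2% and 20.6%, with overlap. H3K27ac regions of 24 h held 6.12%, 6.60% and 2.43% in stimulated cells, against 2.56%, 2.59% and 2.08% (exact permutation p = 0.3), and regions of 0 h held 4.14%, 4.199% and 1.58% against 0.95%, 0.99% and 0.71% (p = 0.1, the smallest possible). In deposited lists the H3K27ac shares were 9.59% against 4.096% for regions of 24 h and 5.51% against 1.74% for those of 0 h, without overlap. The third stimulated library was low in both, close to the naive ones for the regions of 24 h in trimmed lists.

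Counted by gene, an H3K27ac peak at 24 h lay over 19.6% of the genes that ranked higher, 17.6% of those that ranked lower and 14.2% of all tested, and one at 0 h over 15.6%, 8.42% and 6.34%. H3K27me3 at 24 h lay over 75.6%, 64.5% and 71.6%, and at 0 h over 82.0%, 89.4% and 84.3%. Genes called in either direction were therefore mostly H3K27me3 genes, as were the genes tested.

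In the lists as deposited, 1683 genes had an H2AK119Ub peak in 3 of 3 stimulated and 0 of 3 naive libraries, 7.75% of the 21723 genes with a peak in any of the 6, and 14 had the reverse (0.0644%). These counts changed with the lists kept. The first was 3570 without the third naive library, 1695 without the short first naive one, and 2089 to 2563 without 1 stimulated library. The second was 236 without the short first naive library. Leaving out a list also loosens the rule of 3 of 3 and 0 of 3, so these values do not show what the counts depend on. In the trimmed lists the counts were 207 and 277. H3K27ac at 24 h lay over 40.9% of the 1683 genes, against 27.5% of those with any peak, and H3K27me3 at 0 h over 22.5%, against 33.4%. Among the 14, named after their values were seen, was the β-globin gene Hbb-bt, which lay under no peak in stimulated cells and whole under peaks in all 3 naive libraries, at ranks of 1225, 817 and 1330 (−0.86 or below, adjusted p = 0.072). Erythroid markers with an H3K27ac peak numbered 2, 2 and 3 of 13 in stimulated and 2, 0 and 1 in naive cells, and their part in this was not tested.

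On chromosome X, the inactive copy of which carries this mark in female cells, the deposited lists held 2526, 1882 and 1725 peaks in stimulated cells, against 32, 511 and 964 in naive cells. They covered 3.98% ± 0.85 of X in stimulated and 1.46% ± 1.05 in naive cells (SD, n = 3 each), and touched 37.4% ± 3.76 and 13.2% ± 9.94 of its 966 protein-coding genes. To allow for list length, the X:autosome ratio was taken, the log2 of the covered share of X over that of the autosomes in the same list. It was −0.42 ± 0.18 in stimulated and −1.58 ± 0.30 in naive cells, a difference of 1.16 ± 0.20 (SE, exact permutation p = 0.1, the smallest possible), without overlap.

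The sign of the X difference depended on how many peaks were kept. In lists trimmed to 1999 peaks the ratio was −2.27 ± 0.19 in stimulated and −1.90 ± 0.15 in naive cells, a difference of −0.37 with the opposite sign, and the stimulated lists held 24, 27 and 32 peaks on X. In the 5 longer lists trimmed to 19321 peaks it was −0.79 ± 0.14 and −1.52 ± 0.04, a difference of 0.72. No gene on X was among the 250 that ranked higher by limma and 4 were among the 273 lower, of 25 tested, and at an unadjusted p under 0.05 the counts were 0 and 9. In the deposited lists, 18 of 35 windows of 5 Mb on X were covered more in every stimulated than in every naive library. None was covered less. An example is 100 to 105 Mb, which holds Xist, at 21.6% ± 2.25 and 7.35% ± 5.63. These counts do not allow for list length, and the shortest naive list held 32 peaks on X. Windows on the autosomes were not counted. In the deposited lists the same ratio computed for each autosome differed without overlap for 14 of 19, 7 in each direction, from −0.51 (chromosome 3) to 0.46 (chromosome 8), and X lay outside their range. In lists of 1999 peaks the autosomes gave −0.72 (chromosome 6) to 0.76 (chromosome 8), and X lay within.

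**Figure D5:**
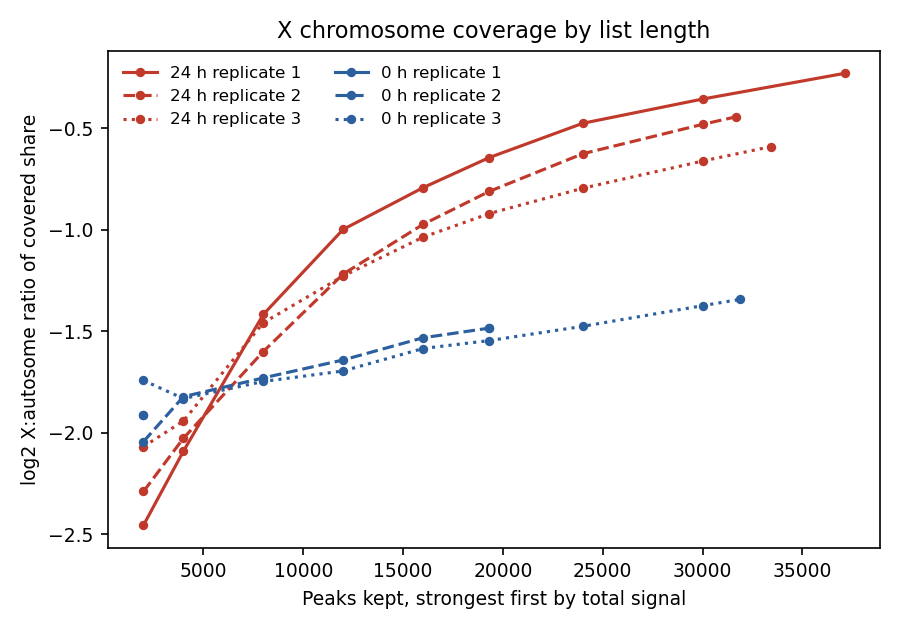
X:autosome log2 ratio of covered share in each stimulated (24 h) and naive (0 h) library against the number of strongest peaks kept by total signal. The stimulated lines start at −2.46 to −2.07 at 1999 peaks, below the naive points, cross them between 4000 and 8000 peaks and lie above them from there on.

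Neither Bcor nor Ftx passed the test. Bcor, an X-linked subunit of a PRC1 variant and a partner of BCL6, had ranks of 148, 333 and 772 in stimulated cells, against 223, 1348 and 1340 in naive cells (1.13 ± 0.91, adjusted p = 0.42), with overlap. Ftx, a non-coding activator of Xist, had 1258, none and none against 530, 1282 and 365 (−1.45 ± 0.51, adjusted p = 0.095). Xist, the RNA that coats the inactive X, had deposited peaks in 3 of 3 stimulated and 2 of 3 naive libraries, over 15.8% ± 6.58 and 19.5% ± 18.4 of the gene. Its best peak ranked 4752, 3602 and 16276 in stimulated cells, against 765 and 1332 in the longer naive lists, and was 6.10, 6.05 and 3.38 kb wide against 19.1 and 18.7 kb. Over the 5 longer lists the difference was −2.69 ± 0.77 (adjusted p = 0.12). Jpx, the non-coding gene beside Xist, had the same naive peaks and stimulated ranks of 12754, 6120 and 5043 (−2.86 ± 0.62, adjusted p = 0.067).

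The WT cells of the mb1 arm, from mice labelled WT mb1, were given CpG for 24 h without TAT-Cre and share no library with the WT tat cells. Of the genes called in WT tat cells and tested there, 240 of 240 higher and 257 of 265 lower had the same sign, against 82.5% of all 2562 genes, and 181 and 206 passed the test in the same direction. Pearson's r of the gene differences was 0.80 across 2760 genes, which are not independent replicates. Rgs13 gave −5.22 in mb1 cells and −5.24 or below in tat cells, Fyn −5.14 and −5.52 or below, Pax6 2.05 and 2.18, and Spib 1.36 and at least 2.48. The tat values of Rgs13, Fyn and Spib are bounds set by the group without a rank, so their sizes cannot be compared closely. A limma test of the difference between the arms called 3 genes with a higher change in tat cells (0.0708%) and 57 with a lower one (1.34%) of 4240. Hoxc13 was among the first: in mb1 cells it ranked 3, 4 and 6 at 24 h and already 10, 8 and 9 at 0 h (difference between arms 6.36 ± 0.72, adjusted p = 0.002). On X, the ratio in deposited lists changed by 1.16 in tat cells and by 0.96 in mb1 cells (exact permutation p = 0.805 for the difference). The mb1 lists held 14705, 32455 and 20611 peaks at 24 h, against 2169, 40486 and 2791 at 0 h. The ratio changes with the number of peaks kept, so the deposited changes also reflect list length. In lists of 1999 peaks the signs were opposite, with changes of −0.37 in tat cells and 0.19 in mb1 cells (exact permutation p = 0.035).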

How the data were processed

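H2AK119Ub CUT&RUN libraries of WT tat CD23+ B cells (3 given TAT-Cre and 24 h of CpG, 3 naive) were compared. Per the submitters' processing notes, reads were handled with Trimmomatic 0.32, Bowtie2 2.3.4.1, Picard and deepTools 3.5.1 on mm10. The deposited lists, whose names carry the SEACR terms norm and relaxed, give each peak's total and highest signal as whole numbers. That deposited signal sums coverage, and nothing shows 1 scale for all lists. No source used here gives the caller's version or control, the use of the yeast spike-in, or read depth. Peaks on Y (1 to 11 per list) and on patches (4 to 206) were left out, and 0 columns of values were unused.

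Lists were trimmed to 1999 peaks by total signal. Genes came from the RefSeq table for GRCm38.p6 (34328 genes), and a peak touched a gene body or its 2 kb flanks by at least 1 bp. Genes with a peak in at least 3 of 6 lists were tested with limma 3.58.1 (R 4.3.3) with Benjamini-Hochberg adjustment at 0.05. Library measures were compared by exact two-sided permutation, for which 0.1 is the smallest p. The ranking was tested on simulated data. Widths and shares used Python 3.11.15 with numpy 2.4.6, pandas 2.3.3 and scipy 1.17.1, and figures matplotlib 3.10.9.

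The genes named were the 12 loci with the smallest p in each direction, up to 4 members of each gene list with the smallest p, and 20 fixed genes. Some genes the rule selects are not described. The members and lists were chosen with earlier results of these data known. H3K27me3 and H3K27ac peaks counted for a gene where at least 2 of 3 libraries held one. Tsix, Cnbp2, Tasl, Nespas, Mx1 and Mx2 had no match in the gene table. Alternatives were another ranking column, summed signal, lists of other lengths, other overlaps, flanks and filters, linear ranks, signal in ppm, a replicate block and leaving out each library.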

Additional observations from a re-analysis of the deposited data

Results flagged for a closer look

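The difference of stimulated from naive cells differed between the WT tat and WT mb1 cells at 3 genes with a higher change in tat cells and 57 with a lower one (limma interaction, adjusted p under 0.05). Hoxc13 gave a difference between the arms of 6.36 ± 0.72 (SE, adjusted p = 0.002), with naive ranks of 1826, 1517 and 809 in tat cells and 10, 8 and 9 in mb1 cells. Gm30971 gave −2.90 ± 0.41 (adjusted p = 0.008), with stimulated ranks of 201, 320 and 290 in tat cells and 39, 61 and 28 in mb1 cells. Itgb7 gave −6.66 ± 0.74 (adjusted p = 0.001): in mb1 cells it ranked 138, 144 and 116 at 24 h and had no rank at 0 h, the opposite direction to tat cells.

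In deposited lists the X:autosome ratio changed by 1.16 in WT tat cells and by −0.52 in the cells labelled Xist KO of the same arm. The difference was 1.68, with an exact permutation p of 0.015 over 400 arrangements. In lists of 1999 peaks the changes were −0.37 and −0.94, and their difference of 0.57 did not pass the test (exact permutation p = 0.265).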

How the results depend on the processing

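The calls by rank, 250 genes higher and 273 lower in stimulated cells, depended on the setting. Ranking by highest signal gave 27 and 175, signal in ppm of the deposited lists, over 15038 genes, gave 1704 and 105, and lists of 999 peaks gave 179 lower. Of the calls by rank, 13 higher and 99 lower were also called by highest signal. In ppm only 3 higher and 80 lower were, and 66 of the 250 higher genes had the opposite sign. Leaving out 1 library gave 76 to 267 higher and 61 to 281 lower, with the lowest counts without the third naive library. The test of the difference between arms gave 3 genes higher in tat cells and 57 lower. It gave 8 higher with linear ranks, 7 with a peak in at least 1 list, 1 higher and 14 lower by highest signal, and 2 to 10 higher and 41 to 72 lower without 1 library.

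The numbers do not pair the libraries: deviations of same-numbered libraries correlated at −0.0002, −0.019 and 0.018. With the replicate block, 150 genes were higher and 160 lower, and the exact p of the library measures cannot go below 0.25.

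The X:autosome difference of 1.16 was −0.37 in trimmed lists and 0.72 in the 5 longer lists. The genic difference of 7.50 points was 9.58 in the upper 50% by highest signal. For H3K27me3 regions of 24 h the difference of 7.61 points was −9.35 in deposited lists. For regions of 0 h, −0.07 became −13.6 in deposited lists, 2.45 with regions held by 3 of 3 libraries, and −4.31 to 2.27 without 1 library. For H3K27ac the difference of 2.64 was 5.50 in deposited lists, and that of 2.42 was 3.77 there and 1.19 with regions held by 3 of 3. Genes with a deposited peak at 24 h only numbered 207 in trimmed lists and 1695 to 3570 without 1 library, and at 0 h only 277 and 14 to 236.

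Some gene differences turned round. With signal in ppm they were −0.092 at Pax6, −0.58 at Hoxb13, −0.50 at Pou2f2, −0.29 at Icam1, −0.61 at Cbx2, −0.87 at Cdkn2a, −1.06 at Prdm1 and −0.40 at Bcor. By highest signal they were −0.024 at Pou2f2, 0.54 at Kdm6b, −0.34 at Cbx2, −0.026 at Cdkn2a and −1.41 at Prdm1. Prdm1 gave −0.41 with summed signal and −0.10 to 0.54 without 1 library, and Hoxa4 gave 0.081 with no flank. Among these, Pax6, Hoxb13, Icam1 and Kdm6b were called by rank. The cause was not tested. Read depth is unknown, and it limits what the lists can show at weak peaks.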
